A study of Saccharomyces cerevisiae with 12 samples.

Results

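Open chromatin was compared between yeast strains that carried the reversed human locus, synHPRT1R, or the original, synHPRT1, both integrated on chromosome XI. All strains were Saccharomyces cerevisiae BY4741, a haploid laboratory strain deleted for HIS3, LEU2, MET15 and URA3. Cultures of both groups were grown in YPD, a rich medium, at 30 °C, and were harvested near an optical density of 0.6. ATAC-seq was used, a method that reads accessible chromatin from the places where a transposase, Tn5, inserts sequencing adapters. Each group had 3 libraries, of 12 libraries in the series, and each library came as 1 list of peaks. The comparison took every peak on the construct before 100 kb and every peak on the 16 nuclear chromosomes, 7240 of the 7341 peaks in the 6 integrated lists and of 13746 in all 12. The peak names carried 1 strain code per group, so a difference between constructs and a difference between these strains cannot be told apart. No label says whether replicates were separate isolates, so p-values measure only the spread between these libraries.

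HPRT1 encodes a human enzyme of purine salvage. The reversed copy has the bases of the locus in the opposite order without being complemented. Base composition and runs of a single base are therefore kept, whereas codons, splice sites and binding motifs are not, and each CpG becomes a GpC. Neither sequence has evolved in yeast. In yeast's own genome, open sites lie mostly in short nucleosome-depleted regions upstream of genes, which are kept open by runs of A or T, by general regulatory factors such as Reb1, Abf1 and Rap1, and by chromatin remodelers.

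The labels were checked first. None of the 6 lists held a peak on the construct of the other group (0 such peaks). Whether reads could align to both constructs is not known here, so this count may have been fixed by the reference. HIS3, LEU2, MET15 and URA3 held a peak in 0 of 6 integrated libraries. In strains with the construct on a yeast artificial chromosome (YAC), grown without leucine, LEU2 held a peak in 3 of 3 libraries of each construct. Peaks at these genes cannot tell the HPRT1R from the HPRT1 strains. The integrated libraries had 1029 to 1343 peaks in all and 993 to 1303 on the nuclear chromosomes. No integrated library had a construct peak past 100 kb. In pairs of integrated libraries, 59.0% to 64.5% of the nuclear regions found in either were found in both, in pairs of the same and of different groups alike. The number of reads per library is unknown from these lists, and the depth could be read only at the peaks. The median read pileup at nuclear summits was 23, 23 and 23 reads in HPRT1R and 26, 24 and 25 in HPRT1 libraries.

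The main comparison asked whether reversing the sequence altered how much of it was open. The HPRT1R construct held 38, 33 and 30 peaks before 100 kb in replicates 1, 2 and 3, and the HPRT1 construct held 22, 19 and 24. The groups did not overlap. Per kb this was 0.337 ± 0.0404 peaks on HPRT1R and 0.217 ± 0.0252 on HPRT1 (mean ± SD, n = 3 each). The nuclear chromosomes of the same libraries had 0.106, 0.0970 and 0.104 peaks per kb in HPRT1R strains and 0.0888, 0.0823 and 0.108 in HPRT1 strains. Those groups overlapped, and their difference of 0.00933 peaks per kb had p = 0.4 (exact two-sided permutation test).

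Set against its own chromosomes, the density of construct peaks was 3.57-, 3.40- and 2.89-fold in HPRT1R and 2.48-, 2.31- and 2.22-fold in HPRT1 libraries. Every HPRT1R library lay above every HPRT1 library. The difference was log2 0.49, from 1.22 ± 0.08 to 1.71 ± 0.16, or 1.40-fold. Its exact two-sided permutation p was 0.1, the smallest that 3 against 3 libraries allow, and 0.267 after Benjamini-Hochberg adjustment over the 8 values tested per library. The difference therefore exceeded the spread between replicates but could not reach 0.05 in this design.

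Peaks covered 11.4%, 11.0% and 10.5% of the HPRT1R construct and 7.47%, 6.87% and 9.37% of HPRT1. On the chromosomes they covered 3.84%, 3.66% and 3.88% of bases in HPRT1R strains and 3.31%, 2.95% and 4.17% in HPRT1 strains. The construct to chromosome ratio of covered shares was 2.89 ± 0.168 on HPRT1R and 2.28 ± 0.0456 on HPRT1 (n = 3 each). That is a difference of log2 0.34, again without overlap of the groups (p = 0.1, adjusted p = 0.267, exact permutation test). Without 2 kb at each end of the 100 kb the difference in covered share was log2 0.19 (p = 0.2, exact permutation test). The strongest HPRT1R region, 955 bp long, lies within the first 2 kb.

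**Figure D1:**
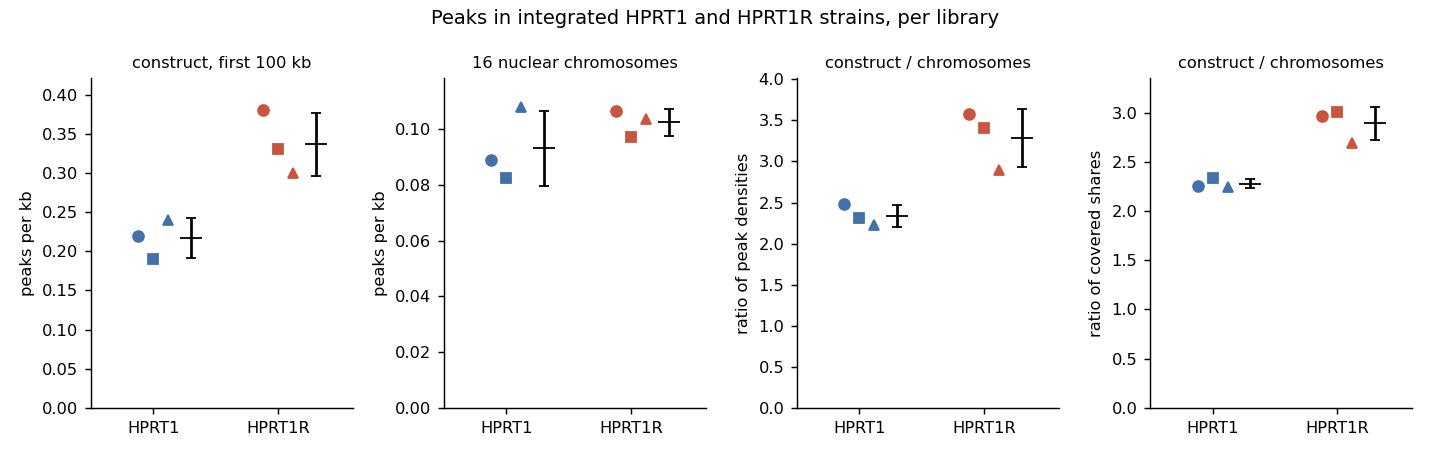
Peaks per kb on the first 100 kb of the construct and on the 16 nuclear chromosomes, and the construct to chromosome ratios of peak density and covered share, in the 3 HPRT1 (blue) and 3 HPRT1R (red) integrated libraries. Circles, squares and triangles are replicates 1, 2 and 3, and bars are mean ± SD. On the construct and in both ratios all HPRT1R libraries lie above all HPRT1 libraries, while on the chromosomes the groups overlap.

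In the strength and width of their peaks the groups overlapped. Strength was read as the rank of a peak's fold enrichment, the peak caller's own ratio of summit to local background, among all peaks of the same list. The median construct peak stood at percentile 19.04, 26.9 and 25.96 in HPRT1R and 27.8, 23.6 and 28.5 in HPRT1 libraries (difference -2.69 points, p = 0.5, exact permutation test). Both constructs thus carried mostly weak peaks by the standard of the host genome. The sign of this difference depended on the peaks kept, and it was 8.37 points once peaks under 3-fold were left out. The median width was 263, 278 and 308 bp on HPRT1R and 263, 317 and 367.5 bp on HPRT1 (p = 0.5, exact permutation test). The groups overlapped in width, and nuclear peaks had medians of 291.5 to 313 bp.

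The highest HPRT1R peak reached percentile 89.3, 96.1 and 79.2 of its list, and the highest HPRT1 peak 64.1, 77.5 and 67.7. The groups did not overlap, which rested on the ends of the 100 kb. Without 2 kb at each end, an alternative added after seeing the data, the highest peaks reached 74.3, 73.9 and 69.7 on HPRT1R, and the HPRT1 values were as before, so that the groups overlapped. Peaks of 4-fold or more numbered 4, 9 and 3 on HPRT1R and 0, 2 and 2 on HPRT1. From 3-fold upwards the numbers were 17, 20 and 15 against 10, 8 and 15, so HPRT1 replicate 3, the list with most peaks, matched the lowest HPRT1R library. Relative to chromosomal peaks filtered alike, the density difference at that fold was log2 0.48 (p = 0.1, exact permutation test). With each list limited to its 900 strongest peaks, the construct held 20, 23 and 19 peaks in HPRT1R and 14, 16 and 12 in HPRT1 libraries. The difference was then log2 0.58 (p = 0.1, exact permutation test). At a -log10 q of at least 10 few construct peaks were left, 2, 7 and 0 on HPRT1R and 0, 2 and 1 on HPRT1, and no difference was detectable at that level.

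Local read background moved with the construct. It was recovered from each peak's fold enrichment and p-value and divided by the lowest background at a nuclear peak of the library. The median ratio at construct peaks was 1.55, 1.56 and 1.55 on HPRT1R and 1.29, 1.31 and 1.22 on HPRT1. The groups did not overlap, and the difference was 1.22-fold (p = 0.1, adjusted p = 0.267, exact permutation test). At construct summits the median pileup was 27, 30 and 28 reads on HPRT1R and 26, 24 and 26.5 on HPRT1. The part of this background in the difference in peak number was not tested.

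Along the constructs, neighbouring peaks were closer together on HPRT1R. The median distance between neighbouring summits was 2393, 2536.5 and 3093 bp on HPRT1R and 3304, 3613 and 3976 bp on HPRT1. The longest stretch without a peak was 8.02, 7.60 and 7.39 kb on HPRT1R, and 19.97, 20.4 and 14.9 kb on HPRT1. Neither measure overlapped between the groups. In all 3 HPRT1 libraries the 14.9 kb from 53129 to 68030 were free of peaks. On the YAC, the HPRT1 libraries held 5, 6 and 5 peaks in the same stretch.

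To set matching DNA side by side, the HPRT1R contig was reversed onto HPRT1. The alignment was taken from the YAC libraries alone as the one with the highest overlap of consensus peaks, in which the contig positions of matching bases sum to 100751. A consensus base was one in a peak in at least 2 of 3 libraries. In the integrated libraries, which had no part in choosing the alignment, 47.6% of HPRT1 consensus bases lay on HPRT1R consensus bases, and 33.7% of HPRT1R bases on those of HPRT1. For comparison, consensus peaks covered 7.15% of HPRT1 and 10.1% of HPRT1R. The integrated libraries by themselves gave the same best alignment. Without reversal, 8.17% of HPRT1 and 5.79% of HPRT1R consensus bases overlapped at the same contig positions. Unreversed at the alignment that was best for the YAC, the shares were 21.6% and 15.3%, and at the one best for the integrated libraries 34.2% and 24.2%. Mirrored overlap is part of the earlier description of these data and is no independent support here.

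**Figure D2:**
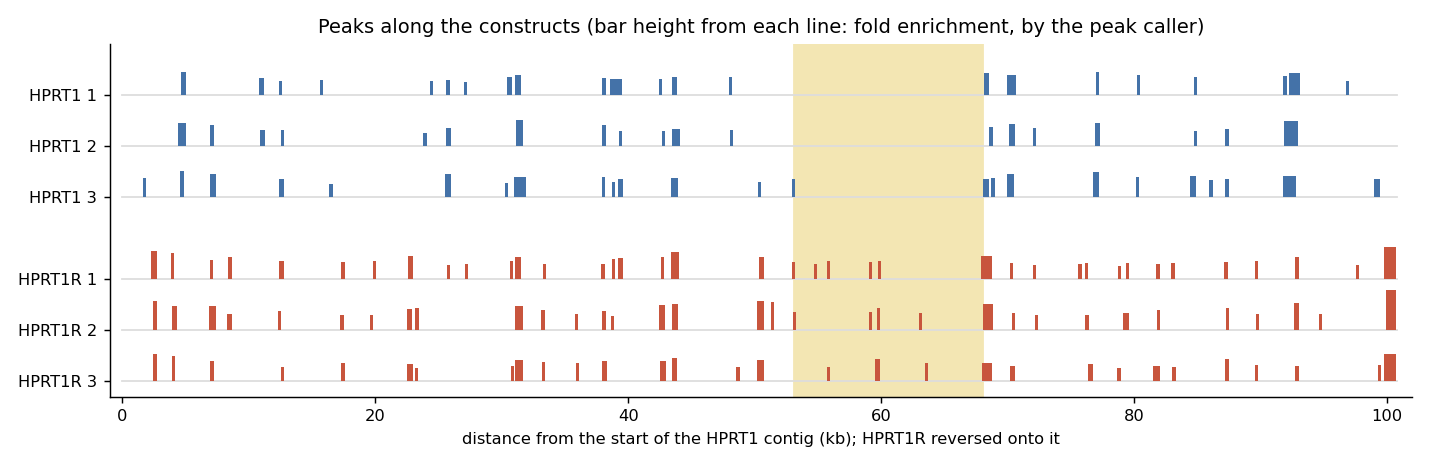
Peaks in the 6 integrated libraries along the first 100 kb, with HPRT1R (red) reversed onto HPRT1 (blue) so that matching DNA is in one column. The x axis is the distance from the start of the HPRT1 contig in kb, each bar is a peak, its height above the line is its fold enrichment, and the shaded stretch is the 14.9 kb free of peaks in all 3 HPRT1 libraries. HPRT1R holds 4, 3 and 3 peaks there, and its highest peaks lie at the far right end.

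With the constructs aligned in this way, the matching 14.9 kb of HPRT1R, 32721 to 47622, held 4, 3 and 3 peaks. They made up 8 regions with those at the edges, 2 of them in 3 of 3 libraries and 3 in 2 of 3. The strongest inside it was 40843 to 41239, with fold enrichments of 3.03, 3.66 and 3.62. The nearest integrated HPRT1 peak was 6383 bp from the mirrored position of that region. The stretch was singled out because HPRT1 had no peak in it, so these counts are a description. The converse was less marked. The longest stretch free of peaks in all 3 HPRT1R libraries was 4.57 kb, 52203 to 56774, and its counterpart on HPRT1 held 1, 1 and 0 peaks. Another, 32840 to 37133 on HPRT1R, had 0 peaks in all 3 HPRT1 libraries at its counterpart too.

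In 10 mirrored windows of 10 kb, HPRT1R had more peaks than HPRT1 summed over 3 libraries in 9 windows and the same number, 7 and 7, in 1 window. On the HPRT1R contig the windows ran from 751 to 100750. The strong peak at the contig start, with summits at 319, 257 and 751, was therefore counted in replicate 3 alone. All HPRT1R libraries lay above all HPRT1 libraries in 1 window, which is 10% of the windows, and below in 0%. That window was 50001 to 60000 on HPRT1, with 0, 0 and 2 peaks, against 6, 5 and 3 on HPRT1R (p = 0.1, adjusted over the 10 windows 0.667, exact permutation test). The next difference was in window 70001 to 80000, with 2, 3 and 2 peaks on HPRT1 and 6, 4 and 3 on HPRT1R. Median local background was higher on HPRT1R in each of the 10 windows. It ranged from 1.28 to 1.93 times the library-wide level there and from 1.00 to 1.48 times on HPRT1. Background could be read only at peaks, pooled over libraries. The 1.00 was that of window 50001 to 60000, with 2 HPRT1 peaks, both in replicate 3 and at the library-wide level. The window with the widest gap in background was 70001 to 80000, at 1.93 against 1.13 times. Window 20001 to 30000 had 6 and 7 peaks in all on HPRT1 and HPRT1R and backgrounds of 1.40 and 1.73 times. Window 70001 to 80000 had 7 and 13 peaks, and window 50001 to 60000 had 2 and 14 with backgrounds of 1.00 and 1.45 times. A relation between counts and background was not tested.

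**Figure D3:**
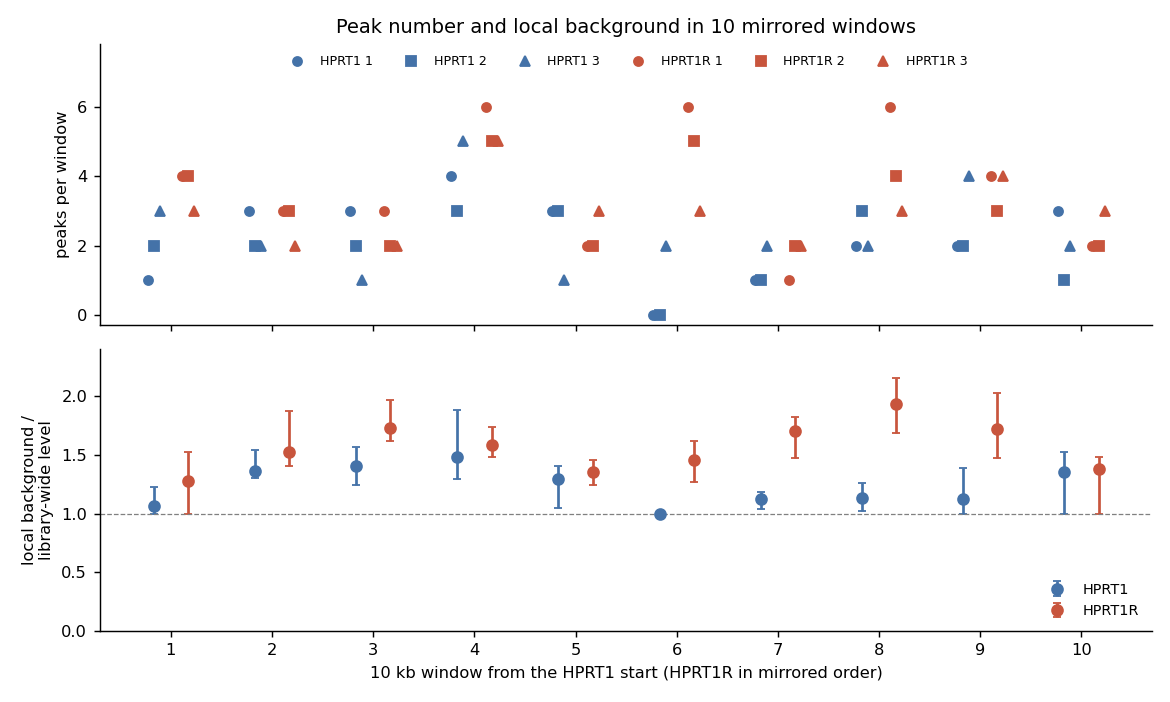
Top, peaks per 10 kb window in each of the 6 integrated libraries (blue HPRT1, red HPRT1R, symbols for replicates 1 to 3). Bottom, local read background at the peaks of each window relative to the library-wide level (dashed line), as the median with the lowest and highest peak, pooled over 3 libraries. In window 6 the HPRT1 value rests on 2 peaks of replicate 3. Windows run from the HPRT1 start, with HPRT1R in mirrored order from 100750 to 751 of its contig. Only window 6 has all HPRT1R libraries above all HPRT1 libraries in peak number, and the median background of HPRT1R is the higher one in each window.

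Peaks of the 3 libraries of a construct were joined into regions where they overlapped. HPRT1R had 46 regions, of which 21 were in 3 of 3 libraries, 13 in 2 and 12 in 1. HPRT1 had 32 regions, with 12 in 3 of 3, 6 in 2 and 14 in 1. The share found in all 3 libraries was 45.7% on HPRT1R and 37.5% on HPRT1, against 48.8% and 47.6% of nuclear regions in the same strains. All 21 and all 12 of these reproducible regions also held a peak in 3 of 3 YAC libraries of the same construct. Over all regions this held for 42 of 46 on HPRT1R and 26 of 32 on HPRT1, so it was common to most regions. Among regions in 1 library it held for 9 of 12 and 8 of 14. In each construct, 1 integrated region was in no YAC library.

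Regions found in 3 of 3 libraries were ranked by the mean percentile of fold enrichment within a list. The strongest HPRT1R region among them lay at the contig start, 59 to 1013, with fold enrichments of 5.30, 6.53 and 4.51. It was followed by 98014 to 98457 near the other end (4.67, 4.84 and 4.51) and by 56775 to 57366 (4.40, 4.27 and 3.81). Then came 96479 to 96899 (4.15 ± 0.138), 50020 to 50562 (4.01 ± 0.697), 57777 to 58329 (3.71 ± 0.391), 69080 to 69728 (3.66 ± 0.262) and 31917 to 32839 (3.66 ± 0.635), each as mean ± SD with n = 3. Of these 8 regions, 3 lay within 4 kb of an end of the 100 kb. A region in replicate 2 alone, 49269 to 49490, had a fold enrichment of 4.59.

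The strongest HPRT1 region in 3 of 3 libraries was 4402 to 5062, with fold enrichments of 3.77, 3.72 and 4.36. It was followed by 76763 to 77266 (3.69, 3.76 and 4.21) and 91783 to 93082 (3.61, 4.11 and 3.54). Then came 69949 to 70614 (3.58 ± 0.279), 30996 to 31909 (3.61 ± 0.589), 68031 to 69015 (3.30 ± 0.297), 37898 to 38220 (3.23 ± 0.381) and 25485 to 25983 (3.13 ± 0.669, n = 3 each). The order is that of percentiles, so the folds need not fall in order. A region in replicates 2 and 3, 6895 to 7366, had a mean fold enrichment of 3.65. Fold enrichments are the authors' values, and genes or exons of the constructs were not analysed here.

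Of the 12 HPRT1 regions found in all 3 libraries, 9 overlapped a mirrored HPRT1R region, and for 7 that region was itself in 3 of 3 libraries. Of the 21 such HPRT1R regions, 11 overlapped a mirrored HPRT1 region, 7 of them in 3 of 3. Over regions of any library, 18 of 32 on HPRT1 and 19 of 46 on HPRT1R overlapped a mirrored region. These regions covered 17.2% of the bases of HPRT1R and 13.4% of those of HPRT1. A region counted as overlapping if it shared any base, so the shares of bases are not a like measure for these counts. Shared pairs included 91783 to 93082 on HPRT1 with 7713 to 8150 on HPRT1R, and 43368 to 44076 with 56775 to 57366. The pair of 68031 to 69015 with 31917 to 32839 was at similar fold enrichments, 3.30 ± 0.297 and 3.66 ± 0.635.

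The first 2 regions in each ranking were not among these pairs, whereas the third in each was. The first 2 HPRT1 regions had no overlapping counterpart, although the mirrored HPRT1R regions nearest to them were only 129 and 19 bp away. The HPRT1R region nearest to the first was 96479 to 96899, the fourth strongest of that construct among regions in 3 of 3 libraries. The strongest HPRT1R region mirrored to 99738 to 100692, and no integrated HPRT1 library held a peak within 337 bp of it. The second strongest, 98014 to 98457, was 481 bp from the nearest HPRT1 peak after reversal. HPRT1R regions in 3 of 3 libraries farther than 1 kb from any mirrored HPRT1 peak were 40843 to 41239, 10944 to 11239, 67263 to 67642 and 18736 to 19279. On HPRT1, 84425 to 84903 was the only region in 3 of 3 libraries at such a distance, with a fold enrichment of 3.00 ± 0.489 (n = 3).

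The same contrast on the YAC gave the construct difference in separate libraries of other strains, grown in another medium. Before 100 kb, HPRT1R exceeded HPRT1 there by log2 0.15 in density relative to the chromosomes (p = 0.1, exact permutation test). In covered share the difference on the YAC was log2 0.13 (p = 0.3, exact permutation test). The density difference was larger by 0.34 in the integrated strains, with p = 0.17 in an exact permutation of construct labels within formats. This test does not show that the effect of reversal was alike in both formats.

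The host genome was compared next, to ask whether the strains differed away from the construct. Of nuclear summits, 65.6%, 65.8% and 66.4% in HPRT1R and 64.4%, 63.5% and 66.1% in HPRT1 libraries lay in a promoter, from 500 bp upstream to 100 bp downstream of an annotated gene start. The groups overlapped (p = 0.3, exact permutation test). Of 6002 protein-coding genes, 4075 had no promoter summit in the 6 libraries and 380 had one in all 6. A gene had a summit in more HPRT1R than HPRT1 libraries in 749 cases, 12.5% of genes, and in more HPRT1 libraries in 485, or 8.08%. HPRT1 replicates 1 and 2 had the shortest nuclear lists, and all genes had a promoter summit in 15.6%, 13.7% and 18.8% of cases in HPRT1 and 18.7%, 17.1% and 18.2% in HPRT1R libraries. With the 900 strongest peaks per library the split was 455 against 448 genes.

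Of 1927 genes with a summit in at least 1 library, 13 had it in 3 of 3 HPRT1R and 0 of 3 HPRT1 libraries, which is 0.675%, and 5 the other way round, or 0.259%. From a -log10 q of 10 upwards the counts were 2 and 3 genes. In Fisher's exact test with Benjamini-Hochberg adjustment 0% passed an adjusted p of 0.05. None could, because 3 against 3 libraries give no p below 0.1, and 0 genes had an unadjusted p under 0.05.

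**Figure D4:**
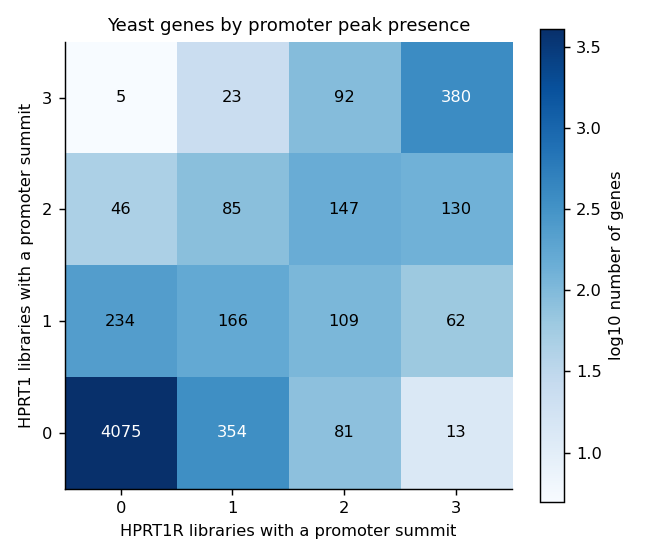
Number of yeast genes by how many of the 3 HPRT1R (x axis) and 3 HPRT1 (y axis) integrated libraries had a peak summit in the promoter, with colour on a log10 scale. The corner cells hold 4075 genes present in none, 380 in all 6, 13 in HPRT1R libraries alone and 5 in HPRT1 libraries alone.

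Some of the 13 genes reflected a shift of the summit within a peak present in all libraries. UTH1 (chromosome XI, 519527 to 520624), which encodes a protein of the SUN family, had summits in its promoter at fold enrichments of 3.71, 4.72 and 5.13 in HPRT1R libraries. In all 3 HPRT1 libraries a peak overlapped the same promoter with its summit elsewhere. The same held for YOL103W-A and YOL103W-B (XV, from 118000). These are overlapping genes of a Ty1 retrotransposon, a repeated element, so its reads may be shared among copies. When any overlap of peak and promoter was counted, 8 of the 13 kept the pattern.

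Those named genes with no overlapping peak in any HPRT1 library made up 6 regions. DAN4 (X, 712255 to 715740), a cell wall mannoprotein, had fold enrichments of 3.74, 3.85 and 3.73 in HPRT1R libraries, and no peak in the 6 YAC libraries either. SCD6 (XVI, 792687 to 793736), a repressor of translation, and its divergent neighbour ANT1 (XVI, 791218 to 792204), the peroxisomal adenine nucleotide transporter, shared a peak at 2.96, 4.02 and 3.27. It was present in 2 YAC libraries of each construct. ISA2 (XVI, 682220 to 682777), needed for mitochondrial iron-sulfur proteins, had 3.58, 3.68 and 2.80 and was present in 0 HPRT1 and 2 HPRT1R YAC libraries. SSM4 (IX, 296050 to 300009), the Doa10 ubiquitin ligase of the endoplasmic reticulum, had 3.34 ± 0.340, and PPN2 (XIV, 240331 to 241311), a polyphosphatase, 3.25 ± 0.520 (n = 3 each). The region of the SSM4 peak also overlapped the tRNA gene YNCI0007C. OPI3 (X, 572315 to 572935), a methyltransferase of phosphatidylcholine synthesis, and MOG1 (X, 573095 to 573751), a factor of nuclear import, shared a peak at 3.21 ± 0.876. OPI3 had a summit in 3 of 3 YAC libraries of both constructs.

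Of the 5 genes with the opposite pattern, RKR1 (XIII, 763351 to 768039), the Ltn1 ubiquitin ligase of ribosome quality control, had fold enrichments of 2.47, 3.86 and 3.22 in HPRT1 libraries. The region of the RKR1 peak also overlapped the tRNA gene YNCM0035C. SUE1 (XVI, 831055 to 831675), required for degradation of unstable cytochrome c, had 2.60, 2.90 and 3.41, and HSE1 (VIII, 102612 to 103970), an ESCRT-0 subunit, 2.86, 2.43 and 2.89. KNH1 (IV, 365068 to 365874), a cell wall protein, had 2.77 ± 0.523, and SKN7 (VIII, 512732 to 514600), a response regulator of oxidative and osmotic stress, 2.79 ± 0.400 (n = 3 each). A peak overlapped each of the last 2 promoters in 1 HPRT1R library.

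None of the 18 genes had a 3 against 0 pattern on the YAC. Of the 13, 2 were present in more HPRT1R and 5 in more HPRT1 YAC libraries, and 6 in equal numbers. Of the 5, 1 was present in more HPRT1R and 1 in more HPRT1 YAC libraries, and 3 in equal numbers. For these genes the YAC libraries thus did not repeat the direction seen in the integrated strains.

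Joined over the 6 libraries, nuclear peaks formed 1858 regions, of which 638 were in all 6. Regions in 3 of 3 HPRT1R and 0 of 3 HPRT1 libraries numbered 12, or 0.646%, and the reverse 3, or 0.161%. This order turned with stricter lists, to 4 and 6 regions with the 900 strongest peaks per library and to 2 and 3 from a -log10 q of 10 upwards. The 15 regions stood at mean percentiles of 11.8 to 76.7 of fold enrichment with a median of 33.99, against 64.7 for regions in all 6. The strongest was on chromosome XV, 438655 to 438867, over the tRNA gene YNCO0016W, at 3.89, 5.86 and 4.51 in HPRT1R libraries. A peak lay there in 1 HPRT1 and 2 HPRT1R YAC libraries. SUP4, also a tRNA gene, lay in another (X, 542813 to 543131) at 3.11, 3.18 and 3.17, with 0 HPRT1 and 2 HPRT1R YAC libraries. The region on chromosome II, 326489 to 326938, over the tRNA gene YNCB0011C, was in 0 HPRT1 and 3 HPRT1R YAC libraries. Also in more HPRT1R than HPRT1 YAC libraries were XVI, 681758 to 682272 (0 HPRT1 and 2 HPRT1R), XIII, 652020 to 652293 (1 and 2), and XVI, 106562 to 106812 (0 and 2). Among the 12, only the regions IX, 300080 to 300368 (1 and 0), and IV, 234158 to 234445 (3 and 2), were in more HPRT1 YAC libraries. The rest of the 12 were in equal numbers. In all, 4 of the 12 and 1 of the 3 regions overlapped a tRNA gene, against 225 of all 1858, or 12.1%, a comparison chosen after seeing these regions. The regions of the SSM4 and RKR1 peaks above are among those counted. Peaks overlapped 137, 122 and 173 of 275 tRNA genes in HPRT1 and 176, 145 and 164 in HPRT1R libraries, and the groups overlapped. Chromosome XI, which holds the constructs, had 55, 60 and 63 peaks in HPRT1 and 62, 59 and 72 in HPRT1R libraries, and 0 of its 94 regions were among the 15.

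Gene groups were read from 10 lists with 314 matched members of 316 listed, by whether a promoter held a summit. Ergosterol genes, which make the main sterol of yeast membranes, stood apart most. A summit was present in 5, 4 and 7 of 22 promoters in HPRT1 and in 12, 8 and 9 in HPRT1R libraries. The groups did not overlap, at 24.2% ± 6.94 and 43.9% ± 9.46 (n = 3 each). Of the 22 members, 10 were present in more HPRT1R and 2 in more HPRT1 libraries, against 12.5% and 8.08% of all genes. That base holds 4075 genes without a summit in any library, which could not differ. Counting only genes with a summit, it was 10 and 2 of 15 ergosterol genes, against 749 and 485 of 1927 genes. ERG2, the sterol isomerase gene, ERG24, the sterol reductase gene, and ECM22, a sterol regulator, were each present in 1 HPRT1 and 3 HPRT1R libraries. ERG4, the last reductase of the pathway, and ERG9, squalene synthase, were present in 0 and 2. ERG1, squalene epoxidase, was present in 1 and 0, and ERG3, the desaturase gene, in all 6. With 900 peaks per library the shares were 16.7% ± 2.62 and 21.2% ± 2.62 (n = 3 each), and the groups overlapped. On the YAC they were 19.7% ± 9.46 for HPRT1 and 19.7% ± 5.25 for HPRT1R (n = 3 each). Part of the summit difference lay in where the summit fell within a peak. When any overlap of peak and promoter was counted, a measure added after seeing the data, 10, 9 and 11 of the 22 promoters were covered in HPRT1 and 15, 11 and 11 in HPRT1R libraries. The groups then overlapped, at 45.5% ± 4.55 and 56.1% ± 10.5 (n = 3 each). By that measure 5 of the 10 members were still covered in more HPRT1R libraries. ERG5, ERG6 and ERG25 were covered in all 6, ERG9 in 2 libraries of each group, and HMG1 in 2 HPRT1 and 1 HPRT1R libraries.

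Glycolysis and fermentation genes had a summit at 11, 13 and 13 of 20 promoters in HPRT1 and 15, 15 and 13 in HPRT1R libraries. The groups overlapped, with 6 members present in more HPRT1R and 2 in more HPRT1 libraries. ENO1, an enolase gene, was present in 1 HPRT1 and 3 HPRT1R libraries, and PDC1, the main pyruvate decarboxylase gene, in 0 and 2. Peaks of any summit position overlapped the ENO1 promoter in all 6 libraries and that of PDC1 in 2 HPRT1 and 3 HPRT1R libraries. TDH3, ENO2, TPI1 and FBA1 were present in all 6. By overlap, 16 of 20 promoters were covered in each HPRT1 and 17 in each HPRT1R library. Over all 6002 genes the shares by overlap were 22.4% ± 3.28 in HPRT1 and 24.6% ± 0.844 in HPRT1R libraries (n = 3 each), and those groups overlapped.

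Ribosomal protein genes had 62.9% ± 4.22 in HPRT1 and 67.4% ± 3.47 in HPRT1R libraries (n = 3 each), with 27 of 132 members in more HPRT1R and 12 in more HPRT1 libraries. RPL35B, RPL28, RPL30 and RPS11B were present in 1 and 3 libraries, and RPL3 in 2 and 0. Amino acid biosynthesis genes had 35.0% ± 3.92 and 39.3% ± 3.92, with 8 and 3 of 39. LYS2 was present in 0 and 2 and LYS20, homocitrate synthase, in 3 and 1. Both belong to lysine synthesis, and a peak overlapped the LYS20 promoter in all 6 libraries, as it did that of RPL30. By overlap, 16, 13 and 16 of the 39 amino acid genes were covered in HPRT1 and 17, 17 and 17 in HPRT1R libraries. The mean share over all genes by that measure was 22.4% in HPRT1 and 24.6% in HPRT1R libraries.

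Purine genes, the pathway that HPRT1 belongs to in human cells, had a summit at 3, 4 and 6 of 27 promoters in HPRT1 and 5, 6 and 6 in HPRT1R libraries. The groups overlapped, with 5 members present in more HPRT1R and 2 in more HPRT1 libraries. HPT1, the yeast counterpart of HPRT1, had a promoter summit in 0 of 6 libraries. PHO2, a regulator of purine and phosphate genes, was present in 0 and 2, and ADE8 in all 6. Heat shock and chaperone genes had 28.1% ± 8.04 and 31.6%, the latter in each of the 3 HPRT1R libraries, with 4 and 2 of 19.

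Histone genes had 9, 7 and 8 of 10 promoters with a summit in HPRT1 and 8, 9 and 8 in HPRT1R libraries, with 7 present in all 6. Of 16 general regulatory factor and remodeler genes, 2 were present in more HPRT1R and 2 in more HPRT1 libraries, REB1 and ABF1 were present in all 6, and STH1, the ATPase of the RSC remodeler, in 0 and 2. Of 14 silencing genes only HST2, a deacetylase gene, had a promoter summit, in all 6 libraries. Of 15 genes of DNA damage and replication stress, 1 was present in more HPRT1R and 3 in more HPRT1 libraries. Among the latter, RNR1 and RNR4, subunits of ribonucleotide reductase, were present in 2 HPRT1 and 0 HPRT1R libraries. A peak overlapped the RNR4 promoter in all 6.

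**Figure D5:**
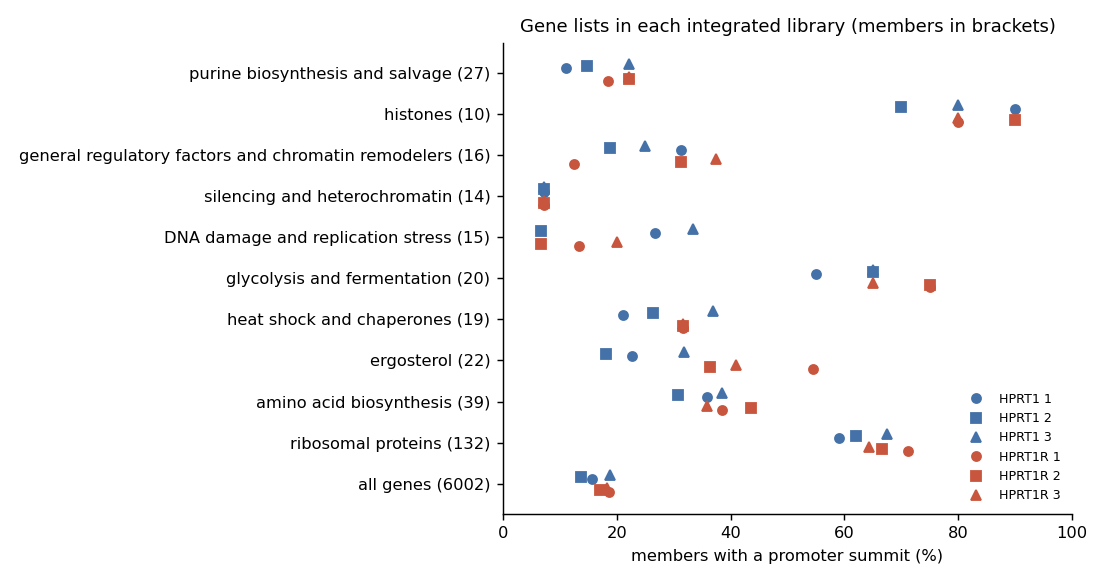
Share of the members of each gene list, in percent, with a peak summit in the promoter in each integrated library (blue HPRT1, red HPRT1R, symbols for replicates 1 to 3). Numbers in brackets are matched members. By summits, the ergosterol list alone has all HPRT1R libraries, 36.4% to 54.5%, above all HPRT1 libraries, 18.2% to 31.8%.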

How the data were processed

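Deposited files were MACS2 peak lists, 1 per library. Build sacCer3, MACS2 2.1.0, Bowtie2 2.2.9 and SAMtools 1.9 are named per the submitters' processing notes. How peaks were called and duplicates or multi-mapping reads handled remains not given in the sources used here. In each deposited list the authors' caller gave a fold enrichment (a ratio to local background), the -log10 of a p-value and q-value, and a score, which was not used. Fold enrichment was only ranked, filtered or described within a list.

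Density, covered share and promoter presence were computed with Python 3.11.15, NumPy 2.4.6, pandas 2.3.3 and SciPy 1.17.1, and checked on simulated peaks. Nuclear length, 12070 kb, was the farther of the last gene and the last peak of each chromosome. Genes came from the RefSeq table of R64, the assembly of sacCer3, with strand from systematic names. A whole pileup matching the -log10 p within 0.01 was found for 99.9% of peaks, and the other 13 had no background value. Library values were compared by exact two-sided permutation tests. Replicate numbers were not taken to pair the libraries. Named host genes were those in 3 of 3 against 0 of 3 libraries, up to 12 per direction by mean percentile of fold enrichment, and list members differing by at least 2 libraries. A gene that this rule takes is not reported here. Named construct regions were the 8 highest per construct by mean percentile among regions in 3 of 3 libraries. Other genes of the lists serve as examples chosen after their values were seen. Members and lists were chosen with earlier results of these data known.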

Additional observations from a re-analysis of the deposited data

Results flagged for a closer look

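Mitochondrial DNA, which entered no comparison, held peaks in all 6 integrated libraries, with a mean of 17.3 peaks per library in HPRT1 and 16.3 in HPRT1R strains (n = 3 each). The lists have no control without such peaks, so the number could not be set against a background. By library there were 19, 17 and 16 in HPRT1 and 15, 17 and 17 in HPRT1R strains, and the groups overlapped.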

How the results depend on the processing

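Differences here are HPRT1R minus HPRT1. Construct peak density and covered share stayed higher on HPRT1R under each of 13 alternatives with a value, as did local background under 9. Many of these alternatives could not turn the sign. The groups did not overlap in these measures, so leaving out 1 library keeps it, and a replicate block leaves the mean difference unchanged. A -log10 q of at least 10 gave no construct value, because 1 library of each construct then had no construct peak. Leaving out 1 library at a time gave log2 0.43 to 0.58 for density, 0.31 to 0.39 for covered share and 0.26 to 0.31 for background, -4.20 to -0.226 points for the percentile, -59.3 to -7 bp for width, 0.00396 to 0.0168 peaks per kb and 0.0557 to 0.669 points covered on the chromosomes, and 0.698 to 1.96 points for the promoter share. The percentile difference reversed to 8.37 points at a fold enrichment of at least 3 and 3.37 with the 900 strongest peaks, where nuclear density reversed to -0.000414 peaks per kb. The cause was not tested.

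Host counts depended more on the setting. With 1 library fewer, and so a laxer 2 against 0 rule in 1 group, genes numbered 27 to 46 for HPRT1R and 11 to 29 for HPRT1, and regions 23 to 37 and 5 to 19. From a -log10 q of 10 upwards there were 2 and 3 genes and 2 HPRT1R regions, with 900 peaks 5 HPRT1R genes and 4 and 6 regions, and at a fold enrichment of at least 3, 0 HPRT1 genes. The order of the groups turned for regions under both shorter lists and for genes at that q. HPRT1 genes numbered 3 with 300 bp promoters and 8 by any overlap. With consensus bases in 3 of 3 libraries, mirrored overlap was 19.9% of HPRT1R.

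With replicate numbers as a block, the density difference was log2 0.49 (exact sign-flip p = 0.25, the smallest for 3 pairs). Same-numbered libraries had correlations of 0.0129, -0.00343 and 0.0239 in nuclear region presence, and differently numbered ones -0.0315 to 0.0184. These values gave no sign that the numbers pair the libraries, but cannot exclude it. A block leaves each mean difference as it was, so it could change no direction.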
